A study of Danio rerio with 16 samples.

Results

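The liver miRNAs of fed zebrafish exposed to fluoxetine (Fed/FLX) were compared with those of zebrafish that were fasted in clean water (Fasted), the comparison in which the 2 treatments of the study, each given alone, were set against each other. The comparison used 8 of the 16 arrays of the series, the 4 labelled Fed/FLX and the 4 labelled Fasted, and it covered the 248 zebrafish miRNAs on the array. Adult female zebrafish were held for 7 days, either fed in water with fluoxetine at 540 ng/L (Fed/FLX) or without food and without fluoxetine, at 0 ng/L (Fasted). The other groups were fed fish without fluoxetine (Fed, the control) and fasted fish with it (Fasted/FLX), with 4 arrays each. Each array held RNA from a pool of 2 livers. The text of the study describes 4 tanks for the 4 groups, so that tank and treatment cannot be told apart. Groups are those of the scanner files' labels. The authors' table of processed values pairs most sample names with other scans, and the files do not settle which pairing is right, so every group value below rests on the scanner files' labels.

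A miRNA is a short RNA that guides a protein complex to messenger RNAs and lowers their translation or stability, and 1 miRNA can act on many messages. Members of a miRNA family share the bases that choose the target, and members of a cluster are cut from a shared transcript, so both families and clusters are usual units of description. In the liver, miRNAs are known to act on cholesterol and fatty acid synthesis, insulin signalling and bile duct formation. Fluoxetine blocks the serotonin transporter and lowers feeding in several fishes, and fasting shifts the liver from storing to releasing fuel. The study asked whether the miRNA profile of fluoxetine exposure is like that of fasting, and the contrast of Fed/FLX with Fasted addresses where these treatments part.

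Levels were expressed as RMA values, which are log2 intensities after background correction and quantile normalization, so that a difference of 1 is a 2-fold change. An array counted as detecting a miRNA if 50% or more of that miRNA's spots stood clear of background. Between 65 and 87 miRNAs were detected on the Fed/FLX arrays and between 74 and 78 on the Fasted arrays, with means of 76.8 ± 10.5 (SD, n = 4) and 76.3 ± 2.06 (SD, n = 4) (exact permutation test, two-sided, p = 1). Over the 8 arrays, detection was complete for 52 miRNAs, partial for 47 and lacking for 149. Fed/FLX arrays 1 and 4 were dimmer than arrays 2 and 3, with 71 and 65 miRNAs detected against 87 and 84. The 8 arrays lay on 2 slides, with 2 arrays of each group on each. Fed/FLX was always placed in columns 2 and 4 of the slide, and Fasted in columns 1 and 3, so that column and group cannot be told apart. In a whole liver, fewer cells of a type and less RNA in each cell cannot be told apart either.

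dre-miR-122, the defining hepatocyte miRNA, was detected on all 8 arrays. Its RMA values were 11.54, 12.32, 12.32 and 12.33 on Fed/FLX arrays 1 to 4 and 12.27, 12.32, 12.31 and 12.07 on Fasted arrays 1 to 4. Fed/FLX array 1 lay well below the rest and the other 7 were close together. Such closeness says little, since quantile normalization gives all arrays nearly the same values at the top of the range. The brighter probe of dre-miR-122 read 12.65 in Fasted with an SD of only 0.0019. A difference in this miRNA could thus be hidden. The difference was -0.12 ± 0.14 (SE, adjusted p = 0.712).

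Fluoxetine-exposed fed fish and fasted fish differed in 18 of the 248 miRNAs, or 7.26%, by limma at an adjusted p under 0.05. Of these, 10 (4.03% of all tested) were higher in Fed/FLX and 8 (3.23%) were lower. dre-let-7i, with an estimate of 2.25-fold higher in Fed/FLX, was the 1 miRNA of the 248 (0.403%) whose estimate also reached 2-fold. Its confidence interval, given below, also held folds under 2. The higher miRNAs included dre-let-7g and 3 members of the miR-99, miR-100 and miR-125 group. The lower ones included dre-miR-194a of the liver-enriched list, dre-miR-26a, dre-miR-30b and 2 neighbours of a miR-17-92 type cluster, dre-miR-19c and dre-miR-20b. The absolute differences of the 18 ranged from 0.32 to 1.17 on the log2 scale, against a median of 0.111 over all miRNAs, and the median signed difference of all miRNAs was 0.01, with 135 of the 248 (54.4%) higher in Fed/FLX.

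**Figure D1:**
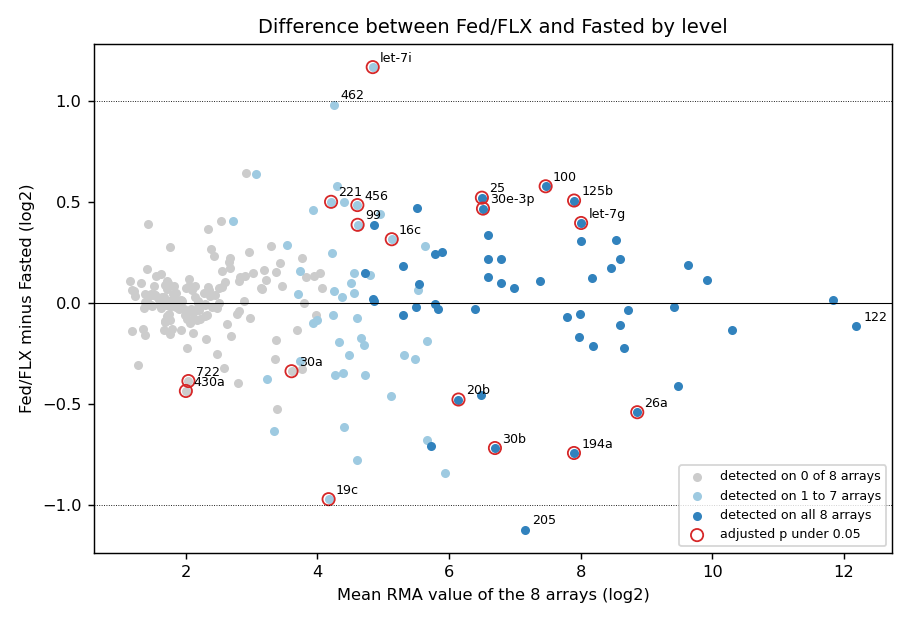
Difference between Fed/FLX and Fasted (y axis, log2) against the mean RMA value over the 8 arrays (x axis, log2) for the 248 miRNAs. Shades give the number of arrays on which a miRNA was detected, rings mark the 18 with an adjusted p under 0.05, and dotted lines mark 2-fold. dre-let-7i is the ringed point above the upper line, and dre-miR-205 lies below the lower line without a ring.

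In 15 of the 18 miRNAs the 4 Fed/FLX values and the 4 Fasted values did not overlap, as was the case for 24 of all 248 (9.68%), 13 with Fed/FLX higher (5.24%) and 11 with Fed/FLX lower (4.44%). The exceptions were dre-let-7g, dre-miR-16c and dre-miR-30a. Detection was complete over the 8 arrays for 9 of the 18 and lacking for 3, and all 18 had the same sign on both slides. The 18 were chosen by the difference over both slides, which favours equal signs. The share over all miRNAs is not given, so nothing is read from this count. At an unadjusted p under 0.05, 42 miRNAs differed (16.9%), 22 higher (8.87%) and 20 lower (8.06%). The count of 18 fell to 9 without Fasted array 3, rose to 29 without Fed/FLX array 4, and was 3 when only the 8 arrays entered the fit. Those 3 were dre-let-7i, dre-miR-19c and dre-miR-456. The count was 5, with 1 higher and 4 lower, without quantile normalization. On total gene signals set to a common 75th percentile it was 7, with 3 higher and 4 lower.

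**Figure D2:**
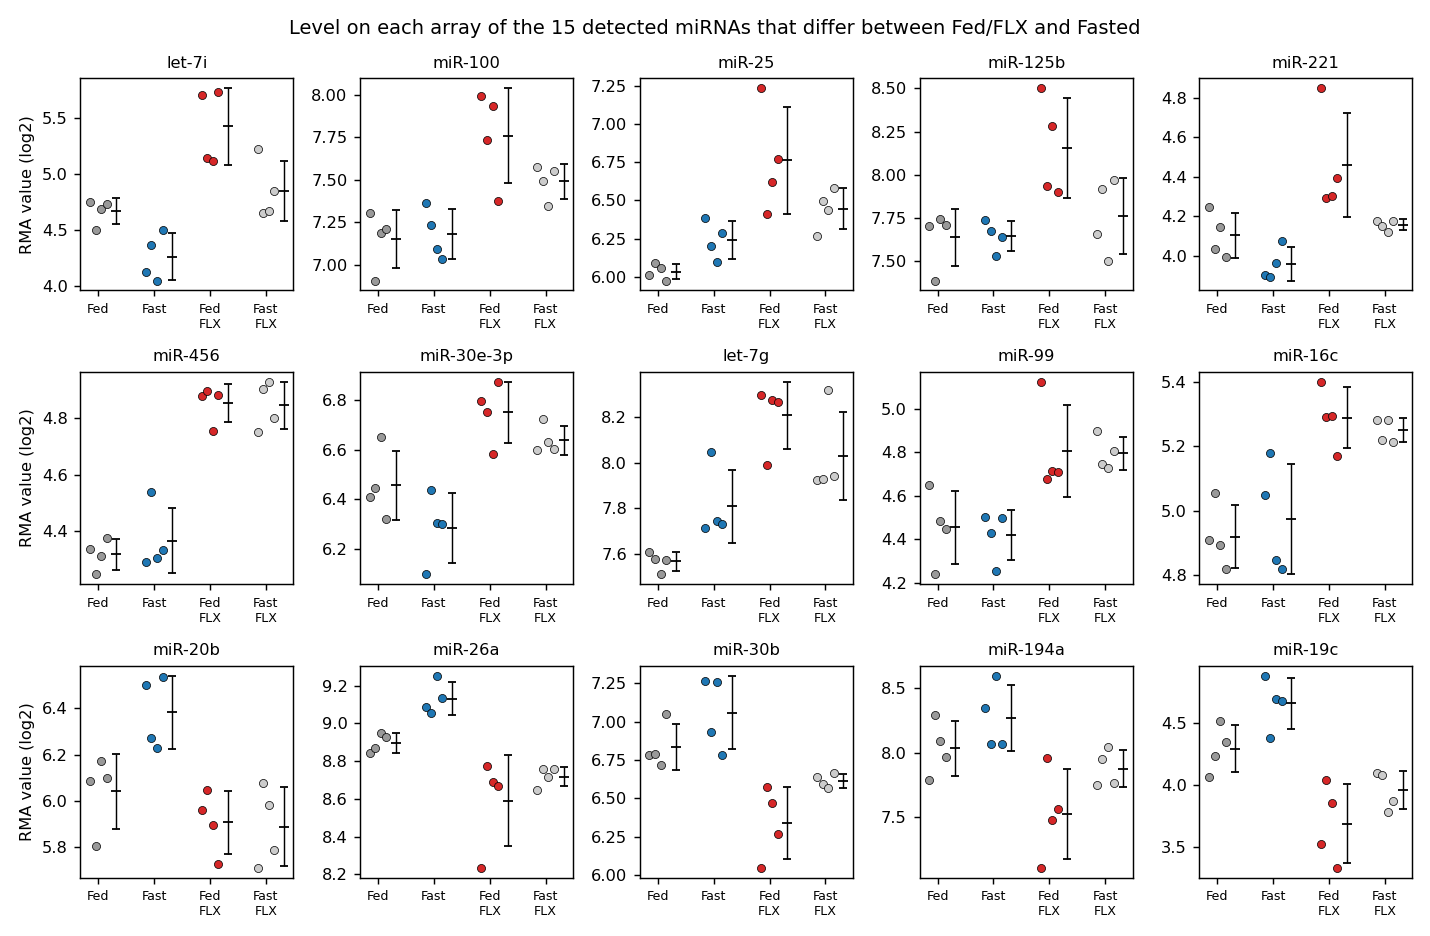
RMA value (y axis, log2) on each array for the 15 of the 18 miRNAs that were detected on at least 1 of the 8 arrays, with the mean and SD (n = 4) beside each group. The red Fed/FLX points and the blue Fasted points are the arrays compared, and the Fed and Fasted/FLX arrays are shown in grey. In 13 of the 15 panels no red point overlaps a blue one.

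The let-7 miRNAs, first known as timers of development in worms and later, in mice, as regulators of glucose handling through the insulin pathway, were represented by 10 miRNAs on the array. Of these 2 were higher in Fed/FLX, 0 were lower and 8 did not pass the test, where 4.03% of all miRNAs were higher and 3.23% lower, with a median difference of 0.12 against 0.01 for all miRNAs. dre-let-7i had RMA values of 5.71, 5.15, 5.11 and 5.74 on the Fed/FLX arrays and of 4.12, 4.37, 4.05 and 4.50 on the Fasted arrays. The lowest Fed/FLX array thus lay well above the highest Fasted array. The difference was 1.17 ± 0.17 (SE, 95% confidence interval 0.82 to 1.52, adjusted p = 0.000581), and it was 1.18 on slide 1 and 1.15 on slide 2.

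The spots themselves showed the same split for dre-let-7i. On each Fed/FLX array 100% of its usable spots were well above background, against 34.5%, 27.1%, 3.39% and 32.8% on Fasted arrays 1 to 4. The miRNA thus counted as detected on 4 Fed/FLX arrays and 0 Fasted arrays. Its Fasted values still lay above the dimmest signal that counted as detected on each Fasted array, but that signal is no detection limit. On Fasted array 1 it was that of dre-let-7j, whose probes were above background at 0% and 100% of spots in Fasted. On Fasted array 3 it was that of dre-miR-152, at 0% and 93.7%. The fold of dre-let-7i is an estimate from its own values, most of whose spots in Fasted were not clear of background. Its 2 probes differed by 1.20 and 1.17. Its difference passed the test in each of the 22 alternative settings that held it, with values from 0.44, under an offset of 50 in the background correction, to 1.61. dre-let-7i also belongs to the 13 miRNAs that the study named from these samples, which is therefore no independent evidence of its direction. Of those 13, 1 passed higher, 0 passed lower, and the median difference was -0.0021.

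dre-let-7g had RMA values of 8.30, 7.99, 8.27 and 8.27 in Fed/FLX and of 7.72, 8.05, 7.74 and 7.73 in Fasted. Array 2 stood apart in both groups, lower than its fellows in Fed/FLX and higher in Fasted, and with it the groups overlapped. The difference of 0.40 ± 0.10 (SE, adjusted p = 0.0277) passed in 3 of the 8 fits that left out 1 array, and without array 1 or 3 of Fed/FLX, or array 1, 3 or 4 of Fasted, its adjusted p rose to as much as 0.0932.

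The other let-7 members differed little between the groups, and none of them passed. dre-let-7a read 9.87 on Fed/FLX array 1 and 10.34, 10.32 and 10.38 on the others, against 10.31 to 10.39 in Fasted, a difference of -0.13 (adjusted p = 0.541). dre-let-7f differed by 0.22 (adjusted p = 0.112) and dre-let-7d, which counted as detected on none of the 8 arrays, by 0.22 (adjusted p = 0.166). The remaining 5 ranged from -0.10 for dre-let-7j to 0.14 for dre-let-7h. The signs of the family depend on the scaling, with 8 members higher and 2 lower here, 3 higher and 7 lower without quantile normalization, and 10 higher and 0 lower when spots were scaled to the 75th percentile of detected miRNAs, which moved the median of all miRNAs to 0.21. Sequences of let-7 members are nearly identical, so that how far the probes separate them is uncertain.

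**Figure D3:**
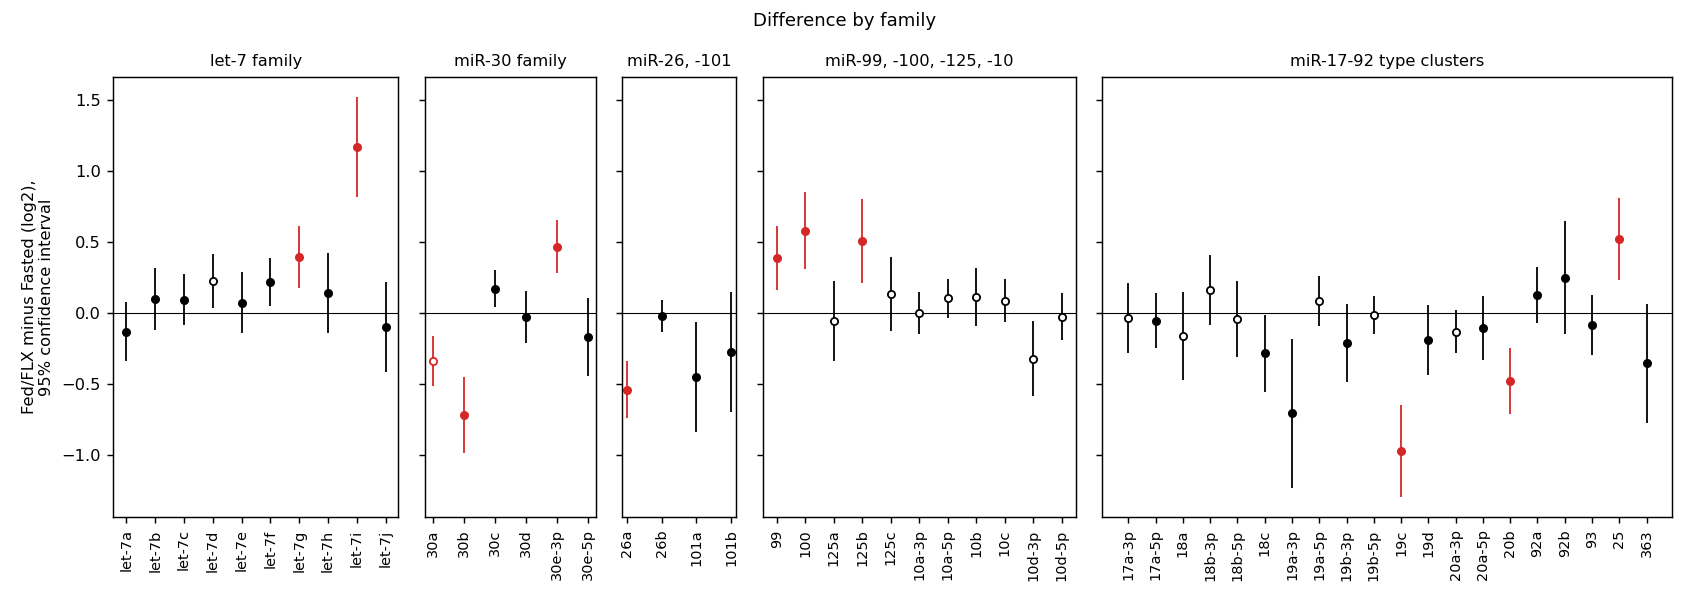
Difference between Fed/FLX and Fasted (y axis, log2) with its 95% confidence interval for each member of 5 groups of related miRNAs. Red marks an adjusted p under 0.05, and open circles mark miRNAs detected on none of the 8 arrays. In the let-7 panel dre-let-7i, at 1.17, lies apart from the other members. The miR-30 panel holds differences of both signs, where the red point above 0 is dre-miR-30e-3p, from the other hairpin arm.

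The miR-99, miR-100 and miR-125 miRNAs, which in vertebrates lie beside let-7 genes and of which miR-125 is the relative of the worm timing miRNA lin-4, had 3 members that were higher in Fed/FLX. Of the 11 members of the list, which also holds miR-10, 3 passed as higher (4.03% of all miRNAs), 0 as lower (3.23%) and 8 did not pass. These 8 counted as detected on none of the 8 arrays, although 1 probe of dre-miR-125c was above background at 100% of spots in both groups. The list's median difference was 0.10. dre-miR-100 had values of 7.99, 7.73, 7.93 and 7.37 in Fed/FLX and of 7.36, 7.23, 7.09 and 7.04 in Fasted. The groups just failed to touch, since Fed/FLX array 4 lay beside Fasted array 1. The difference was 0.58 ± 0.13 (SE, adjusted p = 0.0132), or 1.49-fold. It did not pass without quantile normalization or in either setting scaled to the 75th percentile.

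dre-miR-125b had values of 8.50, 7.93, 8.28 and 7.90 in Fed/FLX and of 7.74, 7.68, 7.53 and 7.64 in Fasted. Every Fed/FLX array was above every Fasted array, and arrays 1 and 3 were well above. The difference was 0.51 ± 0.14 (SE, adjusted p = 0.037), 0.51 on slide 1 and 0.50 on slide 2, but it passed in only 2 of the 8 fits that left out an array and not with slide as a block. In the RefSeq annotation of the GRCz12tu assembly dre-miR-100 and dre-miR-125b have a common neighbour within 10000 bases, dre-let-7a, which differed by -0.13 as given above.

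dre-miR-99 differs from miR-100 by few bases, so that how far the probes separate them is uncertain. It had values of 5.12, 4.68, 4.71 and 4.71 in Fed/FLX and of 4.50, 4.43, 4.25 and 4.50 in Fasted. Fed/FLX array 1 stood above the others, and the groups did not overlap. The difference was 0.39 ± 0.11 (SE, adjusted p = 0.037), and it did not pass without Fed/FLX array 1 or without Fasted array 1, 2 or 3. Of its probes 1 was above background at 100% of spots in both groups and the other at 0%, with differences of 0.47 and 0.18. Over both probes of dre-miR-99, 46.4% to 50% of spots were above background on the Fed/FLX arrays and 47.4% to 50.9% on the Fasted arrays. Its neighbours dre-let-7c and dre-miR-125c differed by 0.09 and 0.13 (adjusted p = 0.647 for each).

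The list of the miR-30 family, known in zebrafish for a part in the development of the bile ducts, held changes in both directions. The only higher one was dre-miR-30e-3p, from the other arm of its hairpin than dre-miR-30e-5p. Whether it shares the target-choosing bases of the family was not checked, so it is not read as a change of the family. Of 6 members 1 was higher in Fed/FLX, 2 were lower and 3 did not pass, where 7.26% of all miRNAs passed, with a median of -0.10. dre-miR-30b had values of 6.05, 6.57, 6.47 and 6.27 in Fed/FLX and of 7.26, 6.93, 7.26 and 6.78 in Fasted. All 4 Fed/FLX arrays were below all 4 Fasted arrays. Its difference was -0.72 ± 0.13 (SE, adjusted p = 0.00249), and its 3 probes gave -0.90, -0.72 and -0.68. It did not pass when only the 8 arrays compared entered the fit (adjusted p = 0.0637).

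dre-miR-30e-3p, cut from the 3′ arm of the miR-30e hairpin, went the other way. It had values of 6.80, 6.75, 6.58 and 6.87 in Fed/FLX and of 6.10, 6.44, 6.30 and 6.30 in Fasted. These did not overlap, and both probes were above background at 100% of spots. The difference was 0.47 ± 0.09 (SE, adjusted p = 0.00383), while the other arm, dre-miR-30e-5p, which was detected on all 8 arrays, differed by -0.17 (adjusted p = 0.548). The difference of dre-miR-30e-3p did not pass without quantile normalization or in either setting scaled to the 75th percentile.

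dre-miR-30a, detected on none of the 8 arrays, was lower by limma. dre-miR-30d, which lies within 10000 bases of dre-miR-30b in the annotation, differed by -0.03 (adjusted p = 0.911) where dre-miR-30b differed by -0.72. dre-miR-30c, the neighbour of dre-miR-30e and named here after its values were seen, ran from 8.45 to 8.66 in Fed/FLX and from 8.28 to 8.43 in Fasted, which did not overlap. Its difference of 0.17 ± 0.06 (SE) did not pass (adjusted p = 0.0939).

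Of the 9 miRNAs on the list of liver-enriched miRNAs, 0 were higher in Fed/FLX, 1 was lower and 8 did not pass, a share near the 7.26% of all miRNAs, and their median difference was -0.12. dre-miR-194a, known from liver and gut, had values of 7.11, 7.96, 7.48 and 7.57 in Fed/FLX and of 8.35, 8.07, 8.60 and 8.07 in Fasted. All Fed/FLX arrays lay below all Fasted arrays, with the closest pair 7.96 and 8.07. The difference was -0.74 ± 0.17 (SE, adjusted p = 0.0142), and without Fasted array 3 it was -0.60 with an adjusted p of 0.0539.

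dre-miR-192, which lies beside dre-miR-194a in the annotation and is likewise enriched in liver and gut, read 8.82, 9.72, 9.30 and 9.29 in Fed/FLX and 9.52, 9.85, 9.72 and 9.68 in Fasted. Fed/FLX array 2 fell inside the Fasted range and the other 3 lay below it. The difference of -0.41 ± 0.14 (SE) had an adjusted p of 0.091. dre-miR-152, of a family that in mammals acts on the DNA methyltransferase DNMT1, differed by -0.63 (adjusted p = 0.0529) and was detected on 0 Fed/FLX arrays and 1 Fasted array.

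dre-miR-26a, of which the mouse relative raises insulin sensitivity in the liver, was lower in Fed/FLX. Its values were 8.23, 8.77, 8.69 and 8.67 in Fed/FLX and 9.09, 9.05, 9.25 and 9.13 in Fasted. The groups were separate, and Fed/FLX array 1 was the lowest of all. The difference was -0.54 ± 0.10 (SE, adjusted p = 0.00249), or 1.45-fold, and it passed in each of the 8 fits that left out an array. It did not pass when only the 8 arrays compared entered the fit (adjusted p = 0.0693). Over the list of 4 miR-26 and miR-101 miRNAs 0 were higher, 1 was lower and 3 did not pass, where 7.26% of all miRNAs passed, and the median was -0.36. All 4 signs were negative, here and under each of the other 4 scalings and background corrections for which list medians were computed. dre-miR-101a, with 5.68, 6.62, 6.02 and 6.74 in Fed/FLX and 6.62 to 6.85 in Fasted, overlapped and did not pass (-0.45 ± 0.18, adjusted p = 0.166), and dre-miR-26b differed by -0.02 (adjusted p = 0.903).

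The miR-17-92 type clusters, which in mammals are driven by Myc and promote cell division, gave 20 miRNAs, of which 1 was higher in Fed/FLX, 2 were lower and 17 did not pass, where 7.26% of all miRNAs passed. The median difference was -0.10. dre-miR-19c had values of 3.52, 4.04, 3.86 and 3.33 in Fed/FLX and of 4.88, 4.38, 4.69 and 4.68 in Fasted. Every Fed/FLX array was below every Fasted array. The difference was -0.97 ± 0.15 (SE, adjusted p = 0.00117), or 1.96-fold, with detection on 1 Fed/FLX array and 3 Fasted arrays. Of its 2 probes the brighter was above background at 47.9% of spots in Fed/FLX and at 100% in Fasted. On Fed/FLX arrays 1 and 4, 0% of its spots were above background, so the fold rests in part on values not clear of background. Over the 21 alternative settings that held it, the difference ran from -3.57 to -0.26. It passed in 20 of these and not on scaled total gene signals (limma, adjusted p = 0.0575).

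dre-miR-20b had values of 5.96, 6.05, 5.89 and 5.72 in Fed/FLX and of 6.50, 6.27, 6.23 and 6.54 in Fasted. The groups were separate. The difference was -0.48 ± 0.11 (SE, adjusted p = 0.0143), and it did not pass without quantile normalization. In the RefSeq annotation dre-miR-19c, dre-miR-20b, dre-miR-18c and dre-miR-363 lie within 10000 bases of each other, and the latter pair also had negative differences, of -0.29 (adjusted p = 0.24) and -0.36 (adjusted p = 0.395), that did not pass.

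dre-miR-25 of a related cluster was higher in Fed/FLX, with values of 7.24, 6.41, 6.62 and 6.77 against 6.38, 6.20, 6.09 and 6.28 in Fasted. Array 1 of Fed/FLX was the highest and array 2 only just cleared the Fasted range. The difference was 0.52 ± 0.13 (SE, adjusted p = 0.0277), and it did not pass without Fasted array 2 or 3. Nor did it pass without quantile normalization or in either setting scaled to the 75th percentile. Its neighbours in the annotation, dre-miR-93 and dre-miR-19d, differed by -0.09 and -0.19 (adjusted p = 0.702 and 0.457). dre-miR-19a-3p read 4.92, 5.67, 5.84 and 5.09 in Fed/FLX and 5.94, 6.39, 5.72 and 6.29 in Fasted. The groups overlapped at Fasted array 3, and the difference was -0.71 ± 0.25 (SE, adjusted p = 0.0939).

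dre-miR-221, whose mammalian relative lowers the cell cycle inhibitor p27, was detected on 3 Fed/FLX arrays and 0 Fasted arrays. It only just met the 50% rule, at 50.9%, 50% and 50.9% of spots on Fed/FLX arrays 1 to 3, against 20.3% to 37.3% in Fasted. Its brighter probe was above background at 88.9% of spots in Fed/FLX and at 54.6% in Fasted, and the other at 0.855% and 0%. The values of dre-miR-221 were 4.85, 4.29, 4.30 and 4.40 in Fed/FLX and 3.91, 3.89, 3.97 and 4.07 in Fasted. The groups were separate, with Fed/FLX array 1 well above its fellows. The difference was 0.50 ± 0.10 (SE, adjusted p = 0.00929), 0.67 on slide 1 and 0.33 on slide 2. It did not pass without quantile normalization. Since no Fasted array detected it, the fold is given over a floor, as 1.38-fold. The floor was the dimmest signal that counted as detected on each Fasted array, or the miRNA's own value if higher. That signal is no detection limit, as given for dre-let-7i, so the fold is not a sure lower bound. Such a fold concerns detection and not the spread between arrays, for dre-miR-221 as for those below.

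Its neighbour dre-miR-222a, named here after its values were seen, had the same size of difference with more spread. It read 5.21, 4.47, 4.54 and 4.42 in Fed/FLX and 4.24, 3.97, 4.23 and 4.21 in Fasted, and it too was detected on 3 and 0 arrays. The groups did not overlap. The difference was 0.50 ± 0.15 (SE) with an adjusted p of 0.0529, or 1.40-fold over a floor taken in the same way.

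dre-miR-456 had the smallest standard error of the 18 miRNAs. It read 4.88, 4.89, 4.75 and 4.88 in Fed/FLX and 4.29, 4.54, 4.30 and 4.33 in Fasted. The SD was 0.07 in Fed/FLX and 0.12 in Fasted, and the groups were separate. The difference was 0.49 ± 0.07 (SE, adjusted p = 0.000581). Of its probes 1 was above background at 100% of spots in both groups and gave 0.53, and the other, at 6.67% and 0%, gave 0.36. Its difference did not pass without quantile normalization (adjusted p = 0.262).

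dre-miR-16c, of the miR-15 and miR-16 family that in mammals restrains the cell cycle, had the smallest difference of the 18. It read 5.40, 5.29, 5.29 and 5.17 in Fed/FLX and 5.05, 5.18, 4.85 and 4.82 in Fasted, and Fasted array 2 met the Fed/FLX range. The difference was 0.32 ± 0.08 (SE, adjusted p = 0.0277), and it passed in 4 of the 8 fits that left out an array. Of the 9 miRNAs on the miR-15, miR-16 and miR-457 list, 1 was higher, 0 were lower and 8 did not pass, where 7.26% of all miRNAs passed.

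The 3 changed miRNAs that counted as detected on none of the 8 arrays were all lower in Fed/FLX. dre-miR-430a, which clears maternal messages in zebrafish embryos, ran from 1.59 to 2.07 in Fed/FLX and from 2.16 to 2.28 in Fasted, a difference of -0.44 (adjusted p = 0.0199). dre-miR-30a differed by -0.34 (adjusted p = 0.0199) and dre-miR-722 by -0.39 (adjusted p = 0.0385). None of these has a fold, each failed the test in some of the fits that left out 1 array, and dre-miR-722 also failed with slide as a block.

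The probes of each changed miRNA pointed the same way. The 18 miRNAs had 38 probes, all 38 had the sign of their miRNA, and for 28 of them the Fed/FLX and Fasted values did not overlap. For 12 of the 18 this held for every probe. The value of each miRNA is summarized from these same probes and the 18 were chosen by it. Agreement of the probes is therefore favoured in advance and is no independent support, and no share over the probes of all miRNAs is given.

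**Figure D4:**
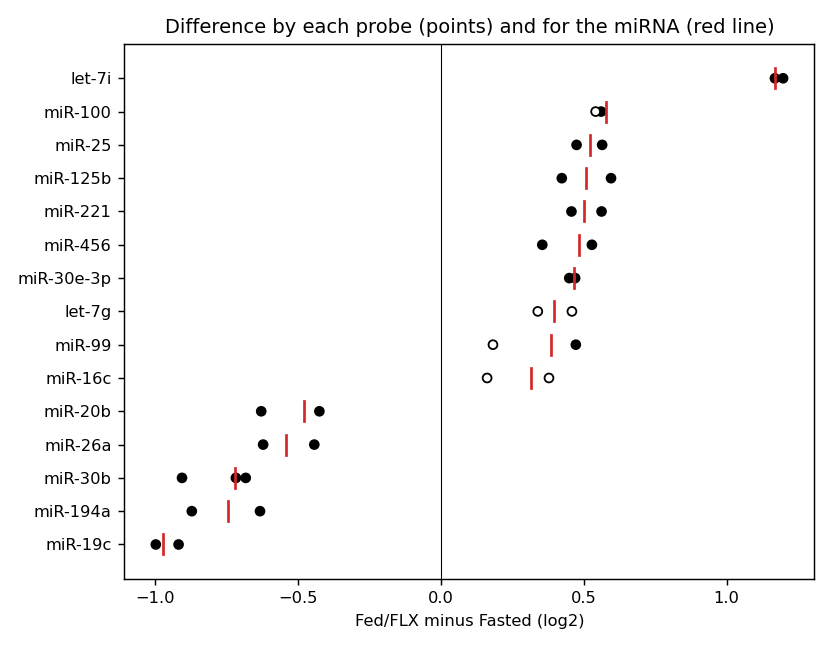
Difference between Fed/FLX and Fasted (x axis, log2) for each probe (points) and for the miRNA as a whole (red lines), for the 15 changed miRNAs detected on at least 1 array. Filled points are probes whose 4 Fed/FLX and 4 Fasted values did not overlap, and open points those that overlapped. No probe lies on the other side of 0 from its miRNA, and the probes of dre-let-7i, at 1.20 and 1.17, lie furthest out on the right.

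Each group was also set beside the Fed control. Against Fed, Fed/FLX differed in 32 miRNAs (12.9%) and Fasted in 0 (0%), and of the 18 miRNAs above 14 were among the 32. Fed, like Fasted, was always placed in columns 1 and 3 of the slide, and Fed/FLX in columns 2 and 4. Column and group thus cannot be told apart in Fed/FLX minus Fed, whereas Fasted and Fed shared their columns. What the column contributed to these counts was not tested. Fed/FLX minus Fed and Fasted minus Fed share the Fed arrays and are given side by side. For dre-let-7i they were 0.76 (adjusted p = 0.00955) and -0.41 (adjusted p = 0.376), so that its Fed mean of 4.67 lay between 5.43 in Fed/FLX and 4.26 in Fasted. For dre-miR-19c they were -0.60 and 0.37, for dre-miR-30b -0.50 and 0.22, for dre-miR-26a -0.31 and 0.24, and for dre-miR-194a -0.51 and 0.24. In these miRNAs the means of the treatments lay on opposite sides of Fed, as they did for 11 of the 18 and for 81 of all 248 (32.7%). The 18 were chosen by the difference between the treatments, which favours such a position, so nothing is read from the former count.

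In others the Fasted mean stayed close to Fed. For dre-miR-100 the differences from Fed were 0.61 in Fed/FLX (adjusted p = 0.00955) and 0.03 in Fasted, for dre-miR-125b 0.52 and 0.01, and for dre-miR-456 0.53 and 0.05. dre-let-7g and dre-miR-25 were above Fed in both, by 0.64 and 0.73 in Fed/FLX and by 0.24 and 0.21 in Fasted. dre-miR-20b was the reverse case, with -0.13 in Fed/FLX (adjusted p = 0.534) and 0.34 in Fasted (adjusted p = 0.17), where neither part passed alone.

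**Figure D5:**
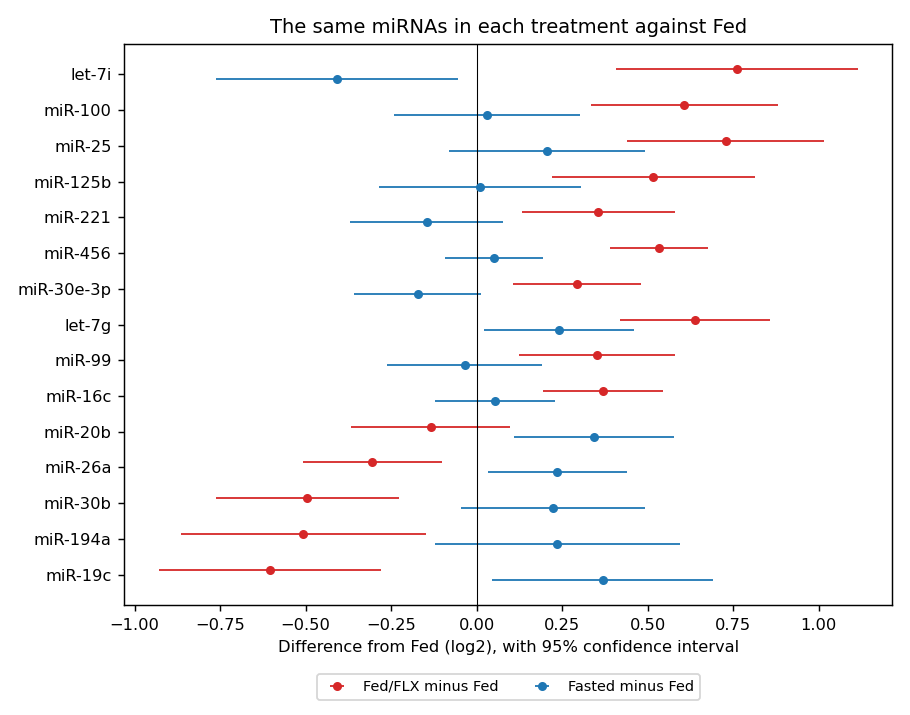
Difference from Fed (x axis, log2) with its 95% confidence interval for Fed/FLX (red) and Fasted (blue), for the 15 changed miRNAs detected on at least 1 array. Both differences use the same Fed arrays. Red points lie further from 0 than blue ones except for dre-miR-20b, and for dre-let-7i the points lie on opposite sides at 0.76 and -0.41.

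Some of the widest differences did not pass the test. dre-miR-205, an epithelial miRNA that in mammals lowers ZEB1, read 5.63, 7.21, 7.36 and 6.17 in Fed/FLX and 7.40, 8.01, 7.46 and 7.99 in Fasted. The groups did not overlap, but the Fed/FLX arrays were spread widely, with SDs of 0.83 in Fed/FLX and 0.33 in Fasted. The difference was -1.12 ± 0.34 (SE, 95% confidence interval -1.86 to -0.39, adjusted p = 0.0549). It passed at 2-fold or more when testing was limited to the 79 miRNAs detected throughout a group of 4 arrays, and again with only the 52 detected on all 8 arrays. Over the 23 alternative settings that held it, it passed in only 6. Its lowest values were those of Fed/FLX arrays 1 and 4, the dimmer arrays of that group.

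dre-miR-462, a fish miRNA known in zebrafish for its induction by low oxygen, read 5.08, 5.27, 4.82 and 3.80 in Fed/FLX and 3.74, 3.41, 3.80 and 4.08 in Fasted. Fed/FLX arrays 1 to 3 lay above every Fasted array and array 4 lay among them. The difference was 0.98 ± 0.29 (SE, adjusted p = 0.0528), 1.60 on slide 1 and 0.37 on slide 2. Detection was on 2 Fed/FLX arrays and 0 Fasted arrays, and the fold over the floor used for dre-miR-221 was 1.75. Without Fed/FLX array 4, without Fasted array 4, or with spots scaled to the 75th percentile it passed at 2-fold or more. The arrays left out there were the lowest of Fed/FLX and the highest of Fasted. Over the 21 alternative settings that held it, dre-miR-462 passed in only 4. Its cluster partner dre-miR-731 was detected on none of the 8 arrays.

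dre-miR-139, named here after its values were seen, read 4.35, 4.72, 4.23 and 5.02 in Fed/FLX and 3.66, 4.19, 4.17 and 4.00 in Fasted, which did not overlap. The difference was 0.58 ± 0.17 (SE, adjusted p = 0.0529), 1.43-fold over the floor used for dre-miR-221. It was among 5 miRNAs detected on at least 3 Fed/FLX arrays and 0 Fasted arrays, with dre-let-7i, dre-miR-221, dre-miR-222a and dre-miR-146b. The converse held for 1, dre-miR-126a-5p, at 3.98 to 4.41 in Fed/FLX and 4.45 to 4.69 in Fasted (-0.35 ± 0.12, adjusted p = 0.091). Its count turned on the 50% rule, with 26.3%, 49.2%, 48.3% and 18.6% of spots clear of background on Fed/FLX arrays 1 to 4. The Fasted arrays had 54.4%, 51.7%, 50.9% and 48.3%. dre-miR-146b likewise only just met the rule on its detecting arrays, at 50% to 51.7%, against 1.67% to 25% in Fasted. So did dre-miR-221, as given above. Over all 248 miRNAs, 18 were detected on more Fed/FLX than Fasted arrays and 22 on more Fasted than Fed/FLX arrays, so the counts of 5 and 1 show no general shift in detection.

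No member passed in either direction on the lists of insulin, glucose and lipid miRNAs (13 miRNAs, differences from -0.36 to 0.22), of miR-130, miR-301 and miR-454 (8), of miR-23, miR-24 and miR-27 (9) or of miR-181 (3). For the first of these lists the median was 0.0073, and 6 of its members were detected on none of the 8 arrays. With 7.26% of all miRNAs passing, 0 in lists of this size says little about the members.

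Markers of other cell types gave 0 passing members on the blood (10), endothelial (8), pancreas and epithelial (16), muscle (8) and brain (6) lists, which for lists of this size is near the 7.26% of all miRNAs. The log2 of the summed level of the pancreas and epithelial list ran from 8.05 to 8.75 in Fed/FLX and from 8.90 to 8.99 in Fasted, without overlap. Brighter members weigh most in such a sum, and 8 of the 16 members counted as detected on none of the 8 arrays. The sums of the miR-26 and miR-101 list and of the list with miR-99 and miR-100 did not overlap either. dre-miR-205 is a member of the pancreas and epithelial list, and so are dre-miR-216a, dre-miR-216b and dre-miR-217, known from the exocrine pancreas, at differences of -0.68, -0.46 and -0.78 (adjusted p = 0.233, 0.704 and 0.541). Other members differed the other way, dre-miR-203b-3p by 0.64, dre-miR-203a by 0.41 and dre-miR-200b by 0.39, and over the list 9 were positive and 7 negative with a median of 0.01. The summed blood list overlapped, from 9.61 to 10.70 and from 9.86 to 10.32, with 7 members positive and 3 negative. Of its red cell miRNAs, dre-miR-144 ran from 4.36 to 6.66 over the Fed/FLX arrays and from 6.12 to 6.73 over the Fasted arrays, and dre-miR-451 from 9.21 to 10.36 and from 9.38 to 9.95. The endothelial sum ran from 9.52 to 9.85 and from 9.42 to 9.68. In the muscle list 7 of 8 and in the brain list 6 of 6 were detected on none of the 8 arrays. What part such cells had in the results was not tested.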

How the data were processed

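The authors deposited Agilent Feature Extraction 11.0.1.1 output for each 1-colour array, with the background-subtracted intensity of every spot, not normalized between arrays. Each array had 15595 spots, of which 14880 were for 248 miRNAs, 60 each. The methods name RMA without settings. Here the intensities of all 16 arrays were corrected by the normal-exponential model (rma75), control and outlier spots were removed, and quantile normalization, log2 and median polish (at most 20 iterations) followed. No miRNA was filtered out. limma 3.58.1 on R 4.3.3 (lmFit, eBayes) fitted 1 mean per group over 16 arrays, with Benjamini-Hochberg adjustment over 248 miRNAs. A change was an adjusted p under 0.05, given also at 2-fold or more. The steps were tested on simulated data, with planted changes larger than any found here and only in miRNAs detected on every array. That test therefore does not cover changes of the size reported here, or dim miRNAs.

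Precision is limited by 4 arrays per group, and nothing in the labels shows what the pools share. The rule for naming took the changed miRNAs, the 13 the study named, the let-7 family and dre-miR-122. It also took the 3 members of each list with the lowest adjusted p, and families and neighbours were set beside these. Of the 13, only dre-let-7d, dre-let-7i, dre-miR-19a-3p and dre-miR-205 are given singly above. The rest of the 13 enter only through their count and median, and some list members are likewise not given singly. The part of this rule on shared target-choosing bases could not be applied, since no miRNA sequences were used here. Members and lists were chosen with earlier results of these data known. Names and neighbours (242 of 248 miRNAs matched) came from RefSeq, GRCz12tu. The authors' table of log2 values over all samples was not used here, because most of its columns match the scans of other samples, and which labelling is right was not settled. Alternatives concerned background, normalization, summary, outlier spots, filters, blocks, left-out arrays, the fit and the methods' test, and a filter on detection on all 8 arrays was added after the data were seen.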

Additional observations from a re-analysis of the deposited data

Results flagged for a closer look

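In all, 94 sets of 4 Fed/FLX or 4 Fasted values were examined, most of them of 1 selected miRNA and a few of a measure of the arrays, such as miRNAs detected. Of the 94, 10 had an array far from the other 3, all in sets of a miRNA. In these the gap to the nearest divided by the range was above Dixon's limit at the 95% level, which chance gives in about 1 of 20 sets. Fed/FLX array 1 was that array in 5 of them. It was low for dre-miR-122 (gap share 0.991, 11.54 against 12.32 to 12.33), dre-let-7a (0.886) and dre-let-7h (0.842), and high for dre-miR-99 (0.916) and dre-miR-222a (0.847). The gap share of dre-miR-122 is raised by the closeness that quantile normalization gives its other values. Without Fed/FLX array 1, 12 miRNAs passed, 6 higher and 6 lower, and all 12 were among the 18, while dre-let-7g, dre-miR-16c, dre-miR-99, dre-miR-125b, dre-miR-430a and dre-miR-722 no longer passed. Fasted array 2 stood apart for dre-miR-456 (0.834, high), dre-let-7g (0.914, high) and dre-miR-222a (0.903, low). Fed/FLX array 3 was low for dre-miR-456 (0.892) and Fed/FLX array 2 was low for dre-let-7g (0.899).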

How the results depend on the processing

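The count of 18 changed miRNAs was 5 without quantile normalization, 7 on scaled total gene signals, 3 with only the 8 arrays in the fit and 6 by the methods' test after Benjamini-Hochberg (27 at the methods' own threshold). With 1 array left out it ran from 9, without Fasted array 3, to 29, without Fed/FLX array 4. The count of 1 at 2-fold or more was 0 with an offset of 50. It was 2 without background correction, without quantile normalization, with testing limited to miRNAs detected throughout a group of 4 arrays, and by the methods' test at its own threshold, and 3 with spots scaled to the 75th percentile. With 1 array left out it ran from 1 to 3. All other settings left both counts within 1.5 times. Of the 18, 1 (dre-let-7i) passed in every setting that held it, and 0 changed sign. None of dre-let-7g, dre-miR-16c, dre-miR-25, dre-miR-30a, dre-miR-30e-3p, dre-miR-99, dre-miR-100 and dre-miR-125b passed without quantile normalization. They did not pass in either setting scaled to the 75th percentile either. Without quantile normalization dre-miR-20b, dre-miR-221, dre-miR-430a, dre-miR-456 and dre-miR-722 also no longer passed.

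Over 973 values of single miRNAs, 817 kept direction and side of the threshold, 98 no longer passed, 41 newly passed and 17 turned direction, all in miRNAs that did not pass here. Without quantile normalization dre-let-7b turned to -0.18, dre-let-7c to -0.078, dre-let-7e to -0.18, dre-let-7f to -0.027, dre-let-7h to -0.087 and dre-miR-30c to -0.082. With spots scaled to the 75th percentile dre-let-7a turned to 0.064, dre-let-7j to 0.10 and dre-miR-122 to 0.068. On scaled total gene signals dre-let-7a turned to 0.025, dre-let-7b to -0.0032, dre-let-7e to -0.0013, dre-miR-122 to 0.028 and dre-miR-146b to -0.14. With 1 array left out dre-let-7j ran from -0.22 to 0.057 and dre-miR-122 from -0.18 to 0.082, both positive without Fed/FLX array 1, and dre-let-7e ran from -0.011, without Fed/FLX array 4, to 0.15. The cause was not tested.

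Same-numbered arrays of the groups correlated in their deviations at 0.10, -0.11, 0.13 and -0.25, over 0.1 in 2 of 4 pairs, so the numbers were not taken as pairing. With the replicate block 19 passed, 16 of them among the 18, and 1 at 2-fold or more, and 1 of 4 Fed/FLX arrays correlated best with its own number.

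Signal over background limits what can be seen, since 149 of 248 miRNAs counted as detected on none of the 8 arrays. Of these 3 passed the test, and no fold is given for them.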
